A study of Mus musculus with 2 samples.

Results

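The genes described here encode the glutathione and thioredoxin systems and the classical antioxidant enzymes of the cell, in cultured mouse neural stem/progenitor cells (NSPCs) sorted by their lipid droplet (LD) content. Members were chosen by gene symbol alone: glutathione S-transferases (*Gst* and *Mgst*), glutathione peroxidases (*Gpx*), peroxiredoxins (*Prdx*), thioredoxins and related proteins (*Txn*), glutaredoxins (*Glrx*), superoxide dismutases (*Sod*), and *Gclc*, *Gclm*, *Gss*, *Gsr* and *Cat*, without pseudogenes. This gave 56 of the 15046 genes in the count table, and all 56 were found in the GENCODE M21 annotation of GRCm38.

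The NSPCs came from the subventricular zone of pooled C57/Bl6 male mice aged 6 to 8 weeks, were grown as neurospheres for at least 5 passages and then kept in N2 medium with 20 ng/ml EGF and 20 ng/ml FGF-2. A single stable line was used, which carries PLIN2-GFP, a fusion of GFP with the LD coat protein perilipin 2, delivered by a retrovirus, so that all cells compared carry the transgene and none received a further treatment. From the viable cells, the 25% with the weakest GFP signal (low PLIN2-GFP NSPCs, the low category) and the 25% with the strongest (high PLIN2-GFP NSPCs, the high category) were placed 1 to a well in 2 plates of 384 wells, each plate holding both categories, and sequenced by SORT-seq, in which each captured RNA molecule is tagged with a unique molecular identifier (UMI) near its 3′ end. One UMI stands for one molecule whatever the transcript's length, so levels can be compared between genes without a length correction.

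Glutathione is a small thiol built by glutamate-cysteine ligase (the catalytic subunit *Gclc* and the modifier subunit *Gclm*) and glutathione synthetase (*Gss*), and is returned to its reduced form by glutathione reductase (*Gsr*). Glutathione peroxidases use it to reduce peroxides, glutathione S-transferases attach it to reactive electrophiles such as lipid aldehydes, and glutaredoxins use it to reduce protein thiols. In parallel, thioredoxin reductases keep thioredoxins reduced, which in turn recycle most peroxiredoxins, while superoxide dismutases turn superoxide into hydrogen peroxide and catalase (*Cat*) breaks the latter down. Many of these genes are known targets of the transcription factor NRF2, which binds antioxidant response elements.

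The core of that element, TGACNNNGC, was searched on both strands (GCNNNGTCA on the other strand) in RefSeq promoters of GRCm38.p6, each 300 bases long from 250 bases before to 50 bases after a transcription start. A promoter was listed for 49 of the 56 members. The core lay in 10 of the 70 promoters of these members (14.3%), against 12.4% of all 32851 promoters. The windows of *Gclm*, *Prdx1* and *Txnrd1* are shown as classical glutathione and thioredoxin genes that hold the core, with the match in capitals. That of *Txndc11* is shown because its level differed between cell cycle phases. *Mgst1*, also called between phases, holds the core in 1 of its 2 promoters. That window overlaps an annotated exon and is not shown. The core lay in 1 of 2 promoters of *Txndc11* and in 1 of 3 of *Txnrd1*. The 120 bases before the start of *Gstm1* are shown because this gene had the clearest phase difference and its window holds no match. The windows are *Gclm* at chr3:122245397-122245457 (+ strand), *Prdx1* at chr4:116685440-116685500 (+), *Txnrd1* at chr10:82859088-82859148 (+), *Txndc11* at chr16:11134722-11134782 (- strand) and *Gstm1* at chr3:108017974-108018093 (-), and none overlaps an annotated exon.
Gclm: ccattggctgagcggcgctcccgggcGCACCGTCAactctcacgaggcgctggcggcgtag
Prdx1: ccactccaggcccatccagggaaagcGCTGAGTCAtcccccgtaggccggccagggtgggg
Txnrd1: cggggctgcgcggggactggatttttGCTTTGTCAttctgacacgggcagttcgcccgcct
Txndc11: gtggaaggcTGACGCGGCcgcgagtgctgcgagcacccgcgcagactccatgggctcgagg
Gstm1: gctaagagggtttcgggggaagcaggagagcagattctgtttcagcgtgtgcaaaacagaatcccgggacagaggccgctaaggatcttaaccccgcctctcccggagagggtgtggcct

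The data hold 304 cells, of which plate 1 held 95 of the low and 84 of the high category, and plate 2 held 72 and 53. Counts were summed per plate and category into 4 sums of 778022 to 1029023 UMIs. Median UMIs per cell were 7856 in low and 11709 in high on plate 1, and 11955 and 14729 on plate 2, so that depth moved with the category. All 5 NSPC markers were present, with *Fabp7* at 2967 to 3395 CPM (counts scaled to a common library size) and *Vim* at 3052 and 3252 CPM in low and 2482 and 2935 CPM in high cells, where it was called lower (-0.22, adjusted p = 0.0405, edgeR). All 5 microglial markers were absent from the table and *Gfap* had 1 count. The summed level of 5 astrocyte markers was 1957 and 1756 CPM in low and 2290 and 2225 CPM in high cells, mostly from *Aldoc* and *Slc1a3*, which were 2 of the 3 tested and were both called higher in high cells (0.38, adjusted p = 0.00764, and 0.24, adjusted p = 0.0856). The part of these markers in the results below was not tested.

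The 56 members made up between 0.697% and 0.795% of the counts of a sum, and their levels spanned more than 3 orders of magnitude. Over the 4 sums, 21 members had a mean above 100 CPM, 26 lay between 10 and 100 CPM and 9 under 10 CPM. *Txn1*, the cytosolic thioredoxin, alone held 21.5% of all member counts, and together with *Prdx1*, *Prdx2* and *Sod1* it held 46.2%. These 4 genes were also the members with a UMI in over 90% of cells. A further 19 members were detected in 50% to 90% of cells, 22 in 10% to 50% and 11 in 10% of cells or fewer, where a cell without a UMI need not lack the transcript. By family, the 6 thioredoxins, reductases and *Txnip* held 26.7% of member counts, the 6 peroxiredoxins 26.1%, the 16 glutathione transferases 11.1%, the 4 dismutase and catalase genes 10.5%, the 11 thioredoxin-domain proteins 9.88%, the 4 glutaredoxins 7.06%, the 5 glutathione peroxidases 5.54% and the 4 genes of glutathione synthesis and reduction 3.12%.

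To ask whether NSPCs with few and many LDs differ in these genes, the sums of the categories were tested against each other with edgeR (quasi-likelihood), the plate being a block in the model. 44 of the 56 members passed the filter on low counts. The other 12 had between 3 and 41 counts over all cells, and *Gss* and *Txnip* are among them. 1 of the 44 members (2.27%) was called at an adjusted p under 0.1, higher in the high category, against 2.14% of all 8348 genes tested in either direction, 0.886% higher and 1.26% lower. The log2 fold changes of the 44 members ran from -0.47 to 1.29 with a median of 0.04, against a median of -0.00146 over all genes, and their median size without sign was 0.153 against 0.190. 28 members lay above 0 and 16 below, so 63.6% above against 49.7% of all genes. On both plates the same direction was seen for 21 of the 44 members (47.7%), against 56.3% of all genes. The 2 high sums lay above both low sums for 8 members (18.2%, against 15.6% of all genes) and below both for 4 (9.09%, against 16.2%). At an unadjusted p under 0.05, 4 members were higher (5.17% of all genes were) and 1 lower (5.82% of all genes).

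**Figure D1:**
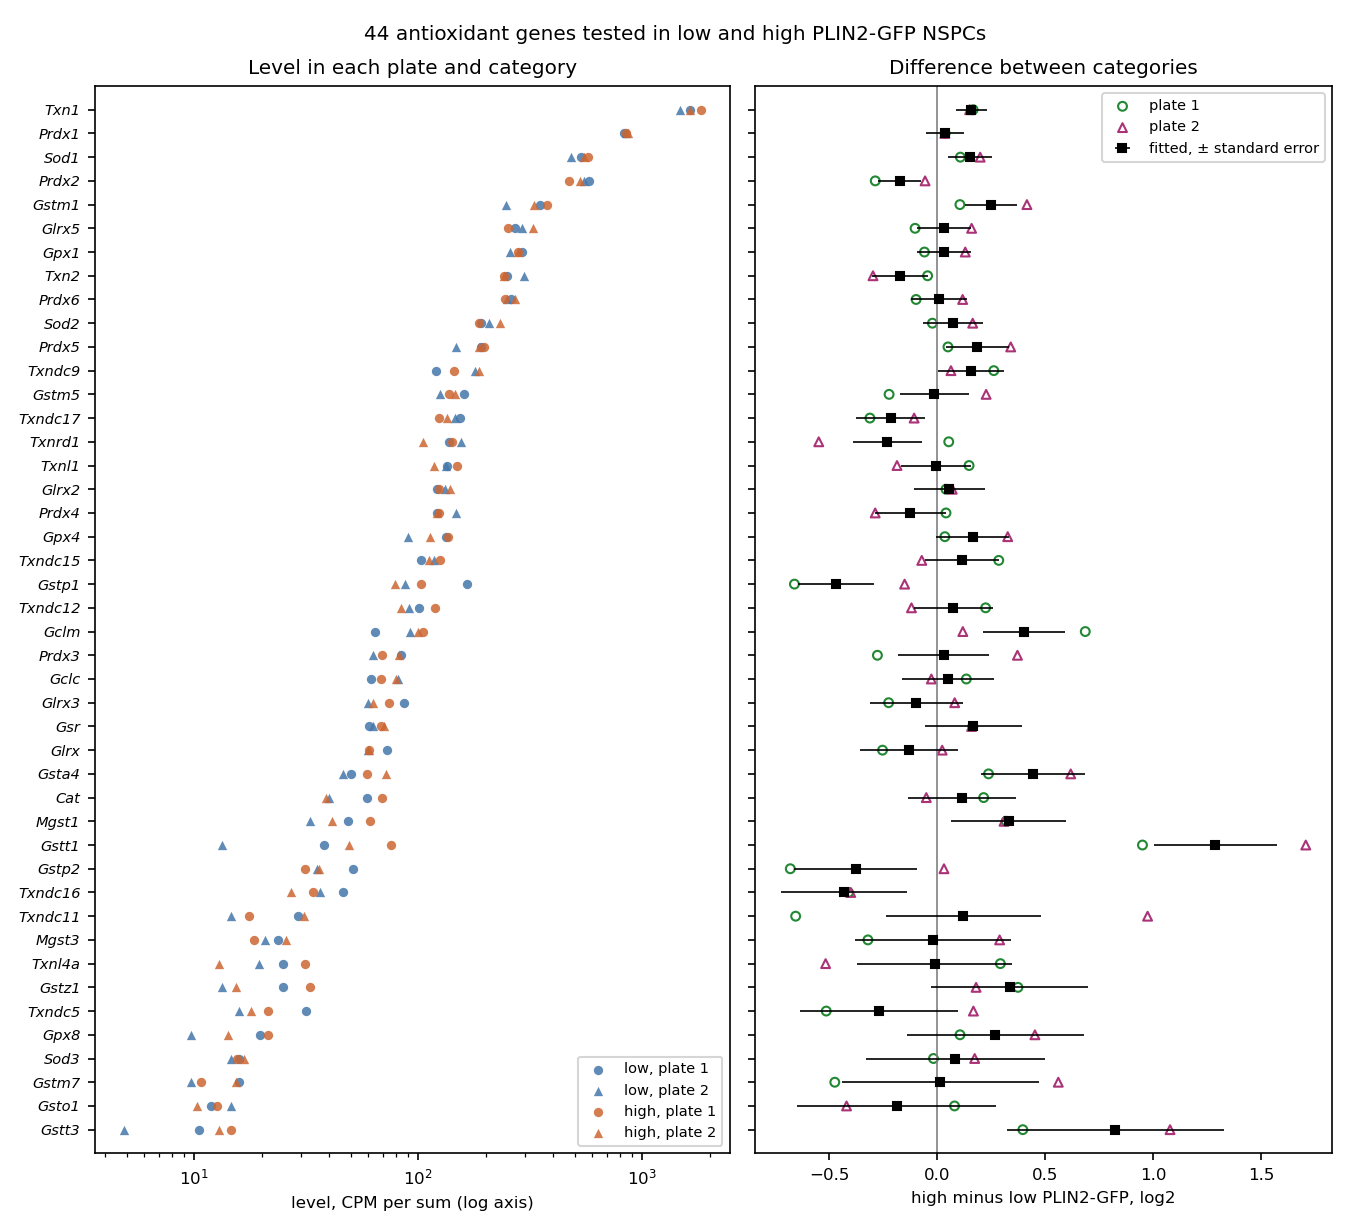
Levels of the 44 tested members in each of the 4 sums, in CPM on a log axis (left), and the difference between high and low PLIN2-GFP NSPCs on the log2 scale (right), fitted with its standard error and for each plate. *Gstt1*, at 1.29, stands apart from the other members, whose fitted values lie between -0.47 and 0.83.

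The called member was *Gstt1* (ENSMUSG00000001663.10, chr10:75783813-75798584, - strand), a theta class glutathione S-transferase. On plate 1, 29 counts came from low cells and 78 from high cells, and on plate 2 these numbers were 11 and 38. These correspond to 38.2 and 13.4 CPM in low (25.8 ± 17.5, SD, n = 2 plates) and 75.9 and 48.9 CPM in high (62.4 ± 19.1, n = 2). Both high sums lay above both low sums, and *Gstt1* was lower on plate 2 than on plate 1 in either category. The fitted difference was 1.29 on the log2 scale (standard error 0.28, edgeR, adjusted p = 0.00147), with 0.95 on plate 1 and 1.71 on plate 2. No count of *Gstt1* was divided between genes. The call was lost without the plate block (adjusted p = 0.705), in cells thinned to 5000 UMIs (log2 fold change 0.93, adjusted p = 0.426) and in G1 cells alone (0.94, 0.577). DESeq2 gave it no adjusted p at a fold change of 1.39. It was also lost without the high sum of plate 1 (0.94) and without the low sum of plate 2 (0.73), in fits that drop the block as well.

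In sums, more cells that express a gene and more RNA per expressing cell cannot be told apart. The share of cells with a UMI was also counted, but it cannot separate them either. For a gene with few counts per cell, this share also rises with RNA per cell and with depth. *Gstt1* was detected in 23.2% of low (95% exact binomial interval 15.1% to 32.9%) and 44.0% of high cells (33.2% to 55.3%) on plate 1. On plate 2, these shares were 13.9% (6.87% to 24.1%) and 43.4% (29.8% to 57.7%). The intervals cover counting error only and do not overlap on either plate. High cells were sequenced more deeply, and after thinning to 5000 UMIs the shares were 15.3% (7.88% to 25.7%) and 26.0% (16.5% to 37.6%) on plate 1 and 4.69% (0.977% to 13.1%) and 14.0% (5.82% to 26.7%) on plate 2, with overlapping intervals. No cell held more than 6 *Gstt1* UMIs. No cell type that should lack these genes was sorted, so a background share from free RNA was not measured.

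When the sums were divided by phase and scaled to the library total alone, *Gstt1* was higher in the high category in 6 of 6 pairs of plate and phase, each resting on 3 to 31 counts. On plate 1 it had 43.5, 26.8 and 29.7 CPM in G1, S and G2/M of low cells and 73.4, 76.6 and 77.3 CPM in those of high cells. On plate 2 these values were 17.2, 10.9 and 10.3 CPM in low and 55.5, 39.1 and 54.9 CPM in high. The gap between categories was thus present in each phase, although the G1 cells alone gave no call. These pairs divide the counts that gave the call, so they add no separate support to it. *Gstt3*, its neighbour on chromosome 10 and another theta class enzyme, had 10.5 and 4.86 CPM in low and 14.6 and 12.9 CPM in high, and 66.2% of its counts were in values divided between genes.

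**Figure D2:**
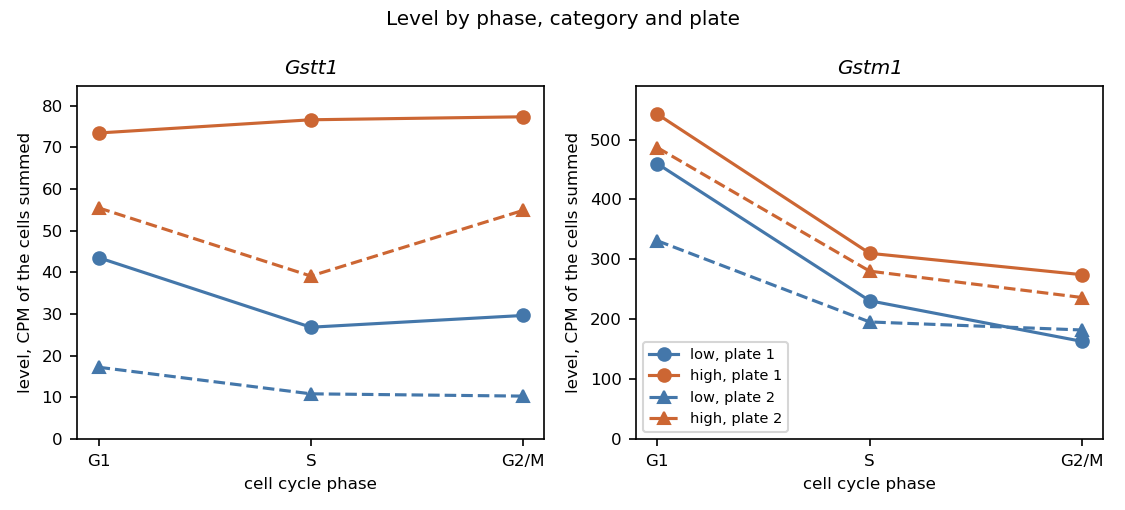
Levels of *Gstt1* (left) and *Gstm1* (right) in CPM for the cells of each phase, category and plate, without normalization factors. Within each plate, *Gstt1* lies higher in high PLIN2-GFP NSPCs in every phase, and *Gstm1* is highest in G1 in both categories on both plates.

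*Gstm1* (ENSMUSG00000058135.12, chr3:108012255-108017973, - strand), a mu class enzyme and the most abundant glutathione transferase here, had 350 and 247 CPM in low and 376 and 329 CPM in high cells. The categories overlapped, since the low sum of plate 1 exceeded the high sum of plate 2, and the log2 fold change of 0.25 (standard error 0.12) was not called (adjusted p = 0.405, edgeR). Within phases, *Gstm1* was higher in high PLIN2-GFP NSPCs in 6 of 6 pairs. These pairs divide the counts of the same sums and add no separate support. *Gstm1* was called in only 2 of 17 alternatives. These were the 12 sums with phase as a term of the model (0.39, adjusted p = 0.0350) and thinned cells (0.57, adjusted p = 0.0629).

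None of the other glutathione transferases was called. *Gstp1*, the pi class enzyme, had the lowest fold change of all members, at 164 and 87.4 CPM in low and 103 and 78.5 CPM in high (log2 fold change -0.47, standard error 0.18, adjusted p = 0.208). Its near copy *Gstp2* had 51.3 and 35.2 CPM in low and 31.1 and 36.0 CPM in high (-0.38, standard error 0.28). Of their counts, 31.2% and 65.7% were in values that the read assignment divided between genes, so the split between these neighbours is uncertain. *Gsta4*, an alpha class enzyme known for conjugating the lipid peroxidation product 4-hydroxynonenal, had 49.99 and 46.1 CPM in low and 59.3 and 72.0 CPM in high (0.44, standard error 0.24, adjusted p = 0.508). *Mgst1*, a membrane-bound transferase, had 48.7 and 32.8 CPM in low and 61.3 and 41.2 CPM in high, and *Gstz1*, the zeta class enzyme, 25.0 and 13.4 CPM in low and 33.1 and 15.4 CPM in high. For both, the plates differed more than the categories.

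The 3 tested genes of glutathione synthesis and reduction had fold changes from 0.05 to 0.40, and none was called. *Gclm*, the modifier subunit, had 64.5 and 92.3 CPM in low and 105 and 100 CPM in high (0.40, standard error 0.19, adjusted p = 0.404). Most of this gap came from plate 1, where the difference was 0.68 against 0.12 on plate 2. *Gclc*, the catalytic subunit, had 61.8 and 81.4 CPM in low and 68.1 and 79.8 CPM in high. *Gsr*, the reductase, had 60.5 and 63.1 CPM in low and 68.1 and 70.8 CPM in high (0.17, standard error 0.22). *Gss*, at 15.8 and 12.1 CPM in low and 4.86 and 10.3 CPM in high, was too sparse to be tested.

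Among the glutathione peroxidases, *Gpx1*, the abundant cytosolic form, had 292 and 256 CPM in low and 280 and 280 CPM in high. *Gpx4*, which reduces lipid hydroperoxides in membranes, had 133 and 89.9 CPM in low and 136 and 113 CPM in high (0.16, standard error 0.17, adjusted p = 0.824). *Glrx5* and *Glrx3*, glutaredoxins of iron-sulfur cluster supply, had fold changes of 0.03 and -0.10. *Glrx5* had 270 and 290 CPM in low and 251 and 324 CPM in high, and *Glrx3* 86.8 and 59.5 CPM in low and 73.9 and 63.0 CPM in high. For all 4 genes the categories overlapped.

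None of the 3 tested thioredoxins and reductases was called between categories, with fold changes from -0.23 to 0.16. *Txn1* had 1630 and 1473 CPM in low and 1828 and 1634 CPM in high (0.16, standard error 0.07, adjusted p = 0.384), and both high sums lay above both low sums by a narrow margin. With library size alone as the scale, it was called (0.22, adjusted p = 0.0263), but this scale also moved the median of all genes to 0.0657. *Txn2*, the mitochondrial thioredoxin, had 250 and 296 CPM in low and 242 and 241 CPM in high (-0.17, standard error 0.13). *Txnrd1*, the cytosolic reductase, had 137 and 155 CPM in low and 142 and 106 CPM in high, with opposite signs on the plates. *Txnip*, the inhibitor of thioredoxin, had 7.89 and 3.64 CPM in low and 0.972 and 2.57 CPM in high and was not tested. *Txndc16* and *Txndc11*, thioredoxin-domain proteins, had fold changes of -0.43 and 0.12. *Txndc16* had 46.0 and 36.4 CPM in low and 34.0 and 27.0 CPM in high, so that both high sums lay below both low sums without a call. *Txndc11* had 28.9 and 14.6 CPM in low and 17.5 and 30.9 CPM in high, the latter in opposite directions on the plates.

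None of the 6 peroxiredoxins was called between categories, with fold changes from -0.175 to 0.185. *Prdx1*, a cytosolic peroxidase, had 826 and 846 CPM in low and 847 and 867 CPM in high (0.04, standard error 0.09, adjusted p = 0.951). *Prdx2*, its cytosolic relative, had 576 and 550 CPM in low and 472 and 529 CPM in high (-0.17, standard error 0.10, adjusted p = 0.540). Both high sums of *Prdx2* lay below both low sums, without a call. *Prdx3*, the mitochondrial form, had 84.2 and 63.1 CPM in low and 69.0 and 82.3 CPM in high, in opposite directions. *Prdx4*, the form of the endoplasmic reticulum, had 121 and 148 CPM in low and 125 and 121 CPM in high, and *Prdx6*, which uses glutathione rather than thioredoxin, 260 and 249 CPM in low and 243 and 270 CPM in high.

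The dismutases and catalase showed no call either. *Sod1*, the cytosolic copper-zinc enzyme, had 533 and 480 CPM in low and 574 and 551 CPM in high (0.15, standard error 0.10, adjusted p = 0.634). *Sod2*, the mitochondrial manganese enzyme, had 191 and 208 CPM in low and 188 and 233 CPM in high. *Cat* had 59.2 and 40.1 CPM in low and 69.0 and 38.6 CPM in high, so that the plates differed by more than the categories.

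The cell cycle phases that the authors assigned were compared next. They were scored from cell cycle genes of these same cells, and no member is among those genes. All cells were grown with EGF and FGF-2, so the comparison does not address quiescence. The 6 sums over plate and phase held 81, 41 and 57 cells in G1, S and G2/M on plate 1 and 51, 36 and 38 on plate 2, and the S and G2/M comparisons use the same G1 sums. 41 members were tested. In S phase, 2 of them (4.88%) were lower than in G1, *Gstm1* and *Gsta4*, and 0 were higher, against 12.7% of all 7650 genes called, 7.56% higher and 5.19% lower. At an unadjusted p under 0.05 there were 0 members higher (11.9% of all genes were) and 6 lower (10.2% of all genes). The alternatives with DESeq2 and limma voom also called 0 members higher. Of the 7650 genes tested, they called 172 and 560 higher. In G2/M, 7 members (17.1%) were called, 1 higher and 6 lower, against 16.4% of all genes, 8.99% higher and 7.4% lower. The median fold change of the members was -0.23 in S phase, against -0.03 of all genes, with 30 of 41 below 0 (73.2%, against 52.6% of all genes). In G2/M it was -0.08 against -0.01, with 25 of 41 below 0 (61%, against 51.3%). The direction was the same on both plates in S phase for 4 members that were higher (30.3% of all genes were) and 23 that were lower (33.3% of all genes), and in G2/M for 30 members (64.9% of all genes). At an unadjusted p under 0.05, 10 members differed in G2/M (23.7% of all genes did). Both S sums lay below both G1 sums for 15 members (36.6%, against 22.9% of all genes), and both G2/M sums did for 15 (36.6%, against 23.4%).

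**Figure D3:**
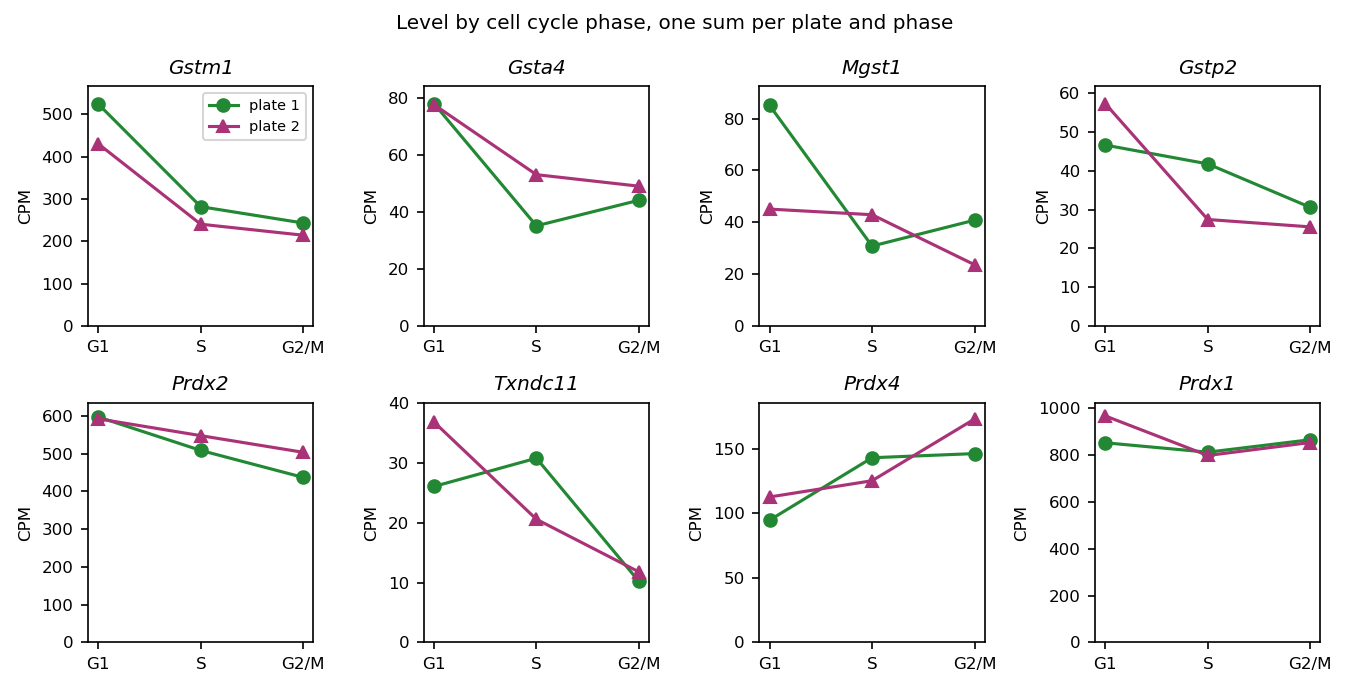
Levels in CPM of the 7 members called in a phase comparison, and of *Prdx1* as an abundant member that was not called, in G1, S and G2/M, with 1 point for each plate and phase. The glutathione transferases are highest in G1 on both plates, *Prdx4* is highest in G2/M, and *Txndc11* is lowest there.

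The clearest difference was that of *Gstm1*. It had 524 and 430 CPM in G1 on plates 1 and 2 (477 ± 66.5, SD, n = 2), 282 and 240 CPM in S (261 ± 29.3) and 243 and 214 CPM in G2/M (229 ± 20.4). Both G1 sums lay above all 4 others. The log2 fold change was -0.87 in S (standard error 0.13, adjusted p = 2.53e-05, edgeR) and -1.06 in G2/M (standard error 0.13, adjusted p = 4.87e-07). G1 was also the highest phase within low and within high PLIN2-GFP NSPCs on both plates, that is in 4 of 4 pairs of plate and category. These pairs divide the same counts and add no separate support. The G2/M call held in 18 of 18 alternatives and the S call in 17 of 18, being lost without the G1 sum of plate 1 (-0.72, adjusted p = 0.125).

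3 other glutathione transferases were lower in G2/M. *Gsta4* had 78.2 and 77.8 CPM in G1, 35.2 and 53.2 CPM in S and 44.2 and 49.1 CPM in G2/M, with fold changes of -0.81 in S (adjusted p = 0.0562) and -0.75 in G2/M (adjusted p = 0.0590, edgeR). *Mgst1* had 85.1 and 45.1 CPM in G1, 30.8 and 42.9 CPM in S and 40.8 and 23.6 CPM in G2/M, with -1.03 in G2/M (adjusted p = 0.0297). The G1 level of *Mgst1* thus came mainly from plate 1. *Gstp2* had 46.7 and 57.4 CPM in G1, 41.8 and 27.5 CPM in S and 30.6 and 25.6 CPM in G2/M (-0.85, adjusted p = 0.0974). Its call held in only 3 of 18 alternatives, and 65.7% of its counts were in values divided between genes. Over all 16 transferases, the summed level was 1228 and 973 CPM in G1, 810 and 673 CPM in S and 758 and 623 CPM in G2/M. *Gstm1* alone held 524 and 430 CPM of this in G1 and 243 and 214 CPM in G2/M. Of the 9 transferases tested, 8 lay below 0 and 1 above in S, and 7 below and 2 above in G2/M. *Gstt1*, in contrast, had 60.4 and 36.9 CPM in G1, 57.2 and 25.7 CPM in S and 62.9 and 31.5 CPM in G2/M and was not called in either phase (-0.23 and -0.03). The calls of *Gsta4*, *Gstp2* and *Mgst1* were lost without the plate block, with all 6 sums kept. A fit with a sum left out drops the block too, so a call lost there cannot be traced to that sum. In such fits, the *Mgst1* fold change in G2/M was -0.45 without the G1 sum of plate 1 and -0.71 without the G2/M sum of plate 2.

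Outside the transferases, *Prdx2* was lower in G2/M, at 597 and 592 CPM in G1, 508 and 547 CPM in S and 437 and 503 CPM in G2/M (-0.35, standard error 0.11, adjusted p = 0.0351). *Txndc11*, a protein of the endoplasmic reticulum, was also lower, at 26.1 and 36.9 CPM in G1, 30.8 and 20.6 CPM in S and 10.2 and 11.8 CPM in G2/M (-1.46, standard error 0.47, adjusted p = 0.0366), on 6 counts in either G2/M sum. *Prdx4* was the member that was higher in G2/M, at 94.7 and 113 CPM in G1, 143 and 125 CPM in S and 146 and 173 CPM in G2/M (0.63, standard error 0.19, adjusted p = 0.0249, edgeR). Both G2/M sums of *Prdx4* lay above both G1 sums. The calls of *Prdx2* and *Prdx4* were lost without the plate block, with all 6 sums kept. Fits with a sum left out drop the block too, so they cannot show whether these calls rest on a single sum. The call of *Txndc11* held without the block, but was lost without either G1 sum and without either G2/M sum.

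Other abundant members were not called in either phase. *Txn1* had 1731 and 1733 CPM in G1, 1824 and 1431 CPM in S and 1747 and 1578 CPM in G2/M. *Sod1* had 623 and 578 CPM in G1, 497 and 487 CPM in S and 537 and 505 CPM in G2/M, and its S phase difference of -0.29 was not called (adjusted p = 0.105, edgeR), though it was in 5 of 18 alternatives. *Gpx1* likewise had 342 and 287 CPM in G1, 238 and 247 CPM in S and 260 and 285 CPM in G2/M (-0.38 in S, adjusted p = 0.101). *Gpx1* was called in S phase in 7 of 18 alternatives. *Gsr* had the highest S phase fold change of the members, with 53.5 and 59.4 CPM in G1 and 81.4 and 72.1 CPM in S (0.44, adjusted p = 0.311), and *Gclc* had 59.0 and 71.7 CPM in G1 and 69.7 and 106 CPM in G2/M (0.41, adjusted p = 0.319). In G2/M, all 3 tested genes of glutathione synthesis and reduction and all 4 glutaredoxins had fold changes above 0, between 0.12 and 0.41, and none of these 7 was called. Median UMIs per cell were lowest in G1 on both plates (8290 against 10994 and 9565 on plate 1, and 9825 against 15301 and 12902 on plate 2), and the *Prdx4*, *Prdx2*, *Gsta4* and *Gstp2* calls in G2/M were lost in cells thinned to 5000 UMIs, at fold changes of 0.35, -0.33, -0.84 and -1.22 (adjusted p of 0.504, 0.185, 0.216 and 0.130). Against the unthinned values, that of *Prdx4* was smaller and that of *Gstp2* larger. The S phase call of *Gsta4* was lost as well (-0.65, adjusted p = 0.447), and *Txndc11* was too sparse to be tested there. Thinning left 4251 genes to test against 7650.

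The phase differences were also followed within each category, with counts scaled to the library total alone. These pairs divide the counts that gave the calls, so they describe the calls and add no separate support. *Mgst1*, *Gstp2* and *Txndc11* were lower, and *Prdx4* higher, in G2/M than in G1 in 4 of 4 pairs of plate and category. *Gsta4* and *Prdx2* were lower in 3 of 4. The exception was in each case the low cells of plate 2, with *Gsta4* at 41.4 CPM in G1 and 58.4 CPM in G2/M (12 and 17 counts) and *Prdx2* at 493 and 522 CPM. In S phase, *Gsta4* was lower than in G1 in 4 of 4 pairs. The summed level of the 5 astrocyte markers moved with the phases too, from 2412 and 2322 CPM in G1 on plates 1 and 2 to 1812 and 1927 CPM in S and 1917 and 1582 CPM in G2/M. *Aldoc* was called lower in S (-0.37, adjusted p = 0.0315) and in G2/M (-0.54, adjusted p = 0.000989, edgeR), as was *Slc1a3* (-0.42, adjusted p = 0.00136, and -0.43, adjusted p = 0.000646). Of the 5 NSPC markers, *Vim* was called lower in G2/M (-0.29, adjusted p = 0.00531, edgeR) and *Fabp7* lower in S (-0.23, adjusted p = 0.0434). *Nes* went the other way and was called higher in S (0.44, adjusted p = 0.0439). The part of these markers in the phase differences was not tested.

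The per-cell table also divides the cells into 2 clusters, which the authors made from the expression of these same cells after removing the effect of the cell cycle, so that the levels by cluster are a description without a test. Cluster 0 held 92 cells on plate 1 and 63 on plate 2, of which 61 and 40 were high PLIN2-GFP NSPCs. Cluster 1 held 87 and 62 cells, with 23 and 13 high. On the log2(CPM + 1) scale, 18 of the 44 members were lower in cluster 1 on both plates (40.9%, against 29.8% of all genes), 8 were higher on both (18.2%, against 29.6%) and 18 differed in sign between plates.

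**Figure D4:**
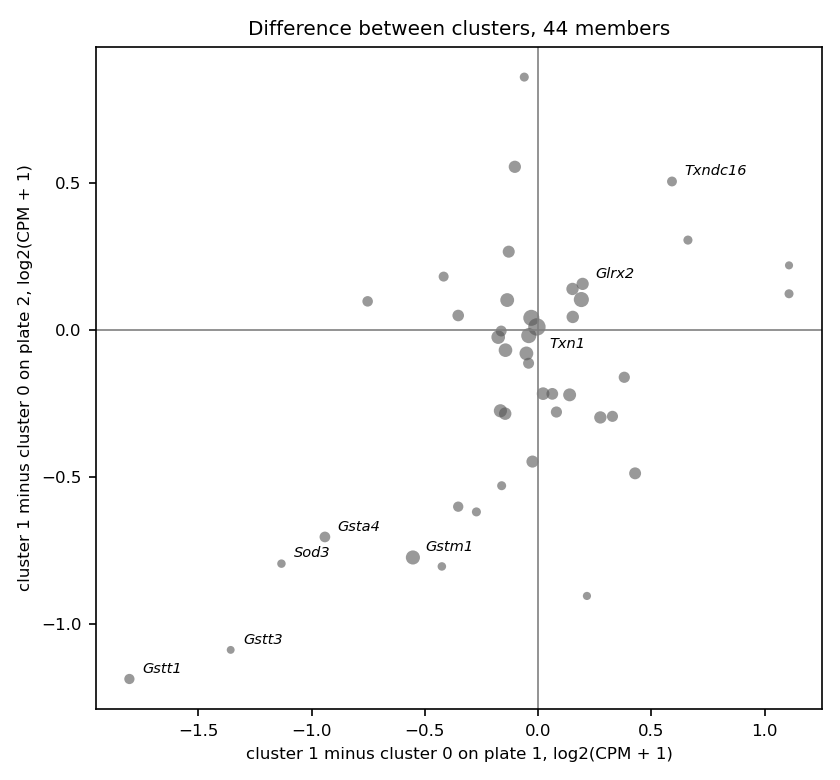
Difference between cluster 1 and cluster 0 on the log2(CPM + 1) scale, on plate 1 (horizontal axis) and plate 2 (vertical axis), with 1 point for each of the 44 tested members and a larger point for a higher mean level. *Gstt1*, *Gstt3*, *Sod3*, *Gsta4* and *Gstm1* lie lower in cluster 1 on both plates, whereas the most abundant member, *Txn1*, lies at the origin.

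The member with the widest gap on both plates was again *Gstt1*. It had 91.5 CPM in cluster 0 and 25.5 CPM in cluster 1 on plate 1, and 41.5 and 17.7 CPM on plate 2. *Gstt3* had 19.4 and 6.96 CPM on plate 1 and 12.7 and 5.43 CPM on plate 2, and *Sod3*, the extracellular dismutase, 21.5 and 9.27 CPM and 19.6 and 10.9 CPM. *Gsta4* had 72.2 and 37.1 CPM on plate 1 and 71.4 and 43.5 CPM on plate 2, and *Gstm1* 431 and 293 CPM and 354 and 207 CPM. In the opposite direction, *Txndc16* had 31.2 CPM in cluster 0 and 47.5 CPM in cluster 1 on plate 1, and 26.5 and 38.0 CPM on plate 2. *Txn1* hardly differed, with 1744 and 1738 CPM on plate 1 and 1542 and 1554 CPM on plate 2. The 4 pairs of plate and cluster again divide the counts that gave the *Gstt1* call. Within each pair, *Gstt1* was higher in high cells, with counts scaled to the library total alone. On plate 1 it had 78.8 CPM in low and 95.5 CPM in high cells of cluster 0 and 19.2 and 33.6 CPM in cluster 1. On plate 2 the values were 7.65 and 56.2 CPM in cluster 0 and 15.1 and 23.2 CPM in cluster 1, resting on as few as 2 counts.

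Another 68 genes were listed for the same pathways, with earlier results of these data known. The shares called among them, between categories and between phases, therefore add no separate support. The lists cover NRF2 and its partners, other NRF2 targets, cystine and glutathione handling, NADPH supply, and iron and metals. They also cover selenoproteins, lipid peroxidation, sources of reactive oxygen species and stress sensors. Of these 68 genes, 61 were in the table and 49 were tested between categories. 2 were higher and 1 was lower in high PLIN2-GFP NSPCs (6.12%, against 2.14% of all genes called, 0.886% higher and 1.26% lower), with a median of 0.00649. *Selenop*, the selenium carrier protein, had 98.7 and 68.0 CPM in low and 155 and 130 CPM in high (0.77, standard error 0.18, adjusted p = 0.00227, edgeR). *Oxr1*, an oxidation resistance gene, had 133 and 180 CPM in low and 207 and 226 CPM in high (0.48, adjusted p = 0.0631). *Mt1*, a metallothionein that binds zinc and copper, was lower, at 1785 and 1351 CPM in low and 1262 and 1196 CPM in high (-0.34, standard error 0.08, adjusted p = 0.00153). In each of these genes the categories did not overlap. Without the plate block, 0 of 8348 genes were called higher and 1 lower, so the calls of *Selenop* and *Oxr1* were lost there. *Nfe2l2*, which encodes NRF2, had 112 and 134 CPM in low and 144 and 120 CPM in high (0.11, adjusted p = 0.898). *Hmox1*, an NRF2 target that breaks down haem, had 21.1 and 31.6 CPM in low and 43.8 and 33.4 CPM in high (0.56, adjusted p = 0.503). *Slc7a11*, the cystine transporter, and *Nqo1*, another NRF2 target, had 6 and 11 counts over all cells and were not tested.

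Of the 45 further genes tested across phases, 1 was higher and 10 were lower in S than in G1 (24.4%, against 12.7% of all genes), with a median of -0.18 against -0.03. In G2/M, 1 was higher and 8 were lower (20%, against 16.4% of all genes), with a median of -0.27 against -0.01. *Sesn3*, a sestrin of the oxidative stress response, was lower in both (-1.16, adjusted p = 3.28e-05, and -1.10, adjusted p = 2.46e-05, edgeR). The ferritin subunits *Ftl1* (-0.44 and -0.40) and *Fth1* (-0.47 and -0.33) were lower in both phases as well, as were *Mt1* (-0.62 and -0.43), *Selenop* (-0.91 and -1.12) and *Me1*, a malic enzyme that supplies NADPH (-0.47 and -0.65). *Glo1*, a glyoxalase, and *Sesn2* were lower in S phase (-1.04 and -1.44), and *Oxr1* in G2/M (-0.80). *Sephs1*, a selenophosphate synthetase family member, was the gene that was higher in both (0.91, adjusted p = 0.0436, and 1.34, adjusted p = 0.000752).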

How the data were processed

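Single NSPCs of 1 line were sequenced by SORT-seq on 2 plates. The authors assigned the reads with Salmon (alevin, per the labels) to GRCm38, kept cells on mitochondrial percentage and doublet detection, and deposited unnormalized estimated counts, 1 value per gene and cell. Their versions are not given in the sources used here. Of the deposited values above 0, 87.1% (members 91.4%) were whole within 1e-06. The authors' per-cell table also holds total estimated counts, shares as a fraction and as a percent, a doublet score and cell cycle scores, of which the plate, category, phase and cluster were used. Count columns were joined to cells by equal total and number of genes, which left 0 of 304 unjoined.

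Counts were summed per plate and category (or phase, or cluster) and rounded. CPM values are scaled by TMM factors, except those within a category and phase or cluster and the marker sums by phase, which are scaled to the library total alone. The sums were compared in edgeR 4.0.16 (R 4.3.3) by the quasi-likelihood test with filterByExpr, a plate block and p-values adjusted by Benjamini-Hochberg across all tested genes, called under 0.1. The block leaves 1 residual degree of freedom between categories (common dispersion 0.00327) and 2 between phases (0.00443), so the spread is borrowed from all genes. Both plates hold the same line. The block takes out the mean difference between the plates, so p-values measure only how far a category or phase difference varies between these plates. The plate number pairs the sums, since same-numbered sums come from the same plate, and their deviations correlated at 0.3 over 8348 genes. Depth was 801933 and 857262 UMIs for the low sums and 1029023 and 778022 for the high sums. Intervals cover counting error only. All 304 cells entered the sums; 11 had 20% or more mitochondrial counts and were left out in an alternative.

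The members and the gene lists were chosen with earlier results of these data known. Members named are those called in any comparison, the 10 highest by mean CPM, the 3 with the smallest p in each direction per comparison if both plates went the same way, and classical enzymes. *Sod3*, *Gstt3* and the genes named for clusters, and *Nfe2l2*, *Hmox1*, *Slc7a11* and *Nqo1* of the other pathway genes, were chosen after their values were seen. Of the other pathway genes, the 10 with the smallest p among the 13 called are named. Alternatives were no block, DESeq2 1.42.0, limma 3.58.1 (voom), other scalings and filters, whole UMIs, thinned cells (45 cells under 5000 UMIs left out), mitochondrial genes or cells left out, 12 sums with a phase term, G1 cells, a stricter threshold and each sum left out. Where a sum was left out, the block was dropped and a group left with 1 sum took its spread from the rest. Coordinates are from GENCODE M21 and promoters from RefSeq (GRCm38.p6). Python 3.11.15, numpy 2.4.6, pandas 2.3.3 and scipy 1.17.1 were used.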

Additional observations from a re-analysis of the deposited data

How the results depend on the processing

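Between categories, 1 member was called higher in high PLIN2-GFP NSPCs. This number became 0 without the plate block, with DESeq2 and in G1 cells alone, and 2 with library size alone (*Gstt1* and *Txn1*) and over 12 sums with a phase term (*Gstt1* and *Gstm1*). With 1 sum left out it ranged from 0 to 1. In thinned cells it stayed 1, but the gene was *Gstm1*. Over all genes, 74 of 8348 were called higher in the fit and 153 with library size alone. The counts were 86 of 4727 genes over 12 sums, 27 of 5620 in thinned cells and 1 of 5288 in G1 cells. *Gstt1* was called in 11 of 17 alternatives, at log2 fold changes of 0.73 to 2.24 and adjusted p of 0.000536 to 0.995. Members called lower were 0 in the fit and in each of these alternatives.

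In S phase, 2 members were called lower. This number was 1 without the plate block, with DESeq2 and at an adjusted p under 0.05, 4 with a mean of at least 10 CPM, with whole UMIs and with cells under 20% mitochondrial counts, and 5 with limma voom and over 12 sums. With 1 sum left out it ranged from 0 to 2. Over all genes, 397 of 7650 were called lower in S in the fit, and 242 at an adjusted p under 0.05. The counts were 411 of 8618 with the CPM filter, 415 of 7455 with whole UMIs and 399 of 7624 with the mitochondrial limit. With limma voom 398 were lower, and over 12 sums 416 of 5371. In G2/M, 1 member was higher and 6 were lower. The numbers were 0 and 2 without the plate block and in thinned cells (there 369 and 288 of 4251 genes), and 0 and 1 with DESeq2. With 1 sum left out, 0 were higher and 1 to 3 lower.

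The plate block pairs the sums of a plate. Without it, over all genes, 0 were higher and 1 lower between categories (74 and 105 with it), 347 and 97 in S (578 and 397) and 420 and 233 in G2/M (688 and 566). DESeq2 with the block called fewer still in the phases, with 172 higher and 35 lower in S and 231 and 86 in G2/M, and 3 and 8 between categories. The cause of these changes was not tested. Fits with 1 sum left out lack the block as well, so their counts above hold the loss of the block too. No called member changed sign under any alternative. Depth limits the tests to 44 and 41 of the 56 members.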
